A study of Homo sapiens with 6 samples.

Results

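The 10 imprinted genes followed here lie outside chromosome 7 and were measured in A2780 ovarian carcinoma cells with and without a CDK12 knock-out: SNRPN, NDN, MAGEL2 and MKRN3 on chromosome 15, IGF2, CDKN1C and KCNQ1OT1 on chromosome 11, PLAGL1 on chromosome 6, DIRAS3 on chromosome 1 and NAP1L5 on chromosome 4. They were chosen by symbol, through the Ensembl identifier of each row of the count matrix, and make up 10 of the 60483 genes listed. All 10 have a row, and 9 of them are among the 16198 genes with enough counts to be tested; IGF2 is not. A2780 WT cells are the parental line. The A2780 CDK12 KO cells had been transfected with a Cas9 plasmid aimed at exon 1 of CDK12 and are a single clone, isolated after a second round of transfection of a heterozygous clone, so a property of this clone and an effect of the CDK12 loss cannot be told apart. The paper reports a duplication of the DNA content and of the chromosome set in this clone, with some single chromosomes gained or lost. Counts scaled to library size do not show a gain of the whole set. The part of copy number in the values below was not tested. No treatment was given to either group, and 3 libraries of total RNA were sequenced from each. The labels do not say whether the libraries of a group came from separate cultures, so the p-values cover the spread between these libraries, which may be technical.

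An imprinted gene is expressed mainly from the allele inherited from one parent, and the allele used is set by DNA methylation laid down in the germ line at a control region and kept through cell division. Zinc finger proteins such as ZFP57 and ZNF445 bind methylated control regions and, through the co-repressor TRIM28 and the maintenance methyltransferase DNMT1, keep them methylated in the dividing embryo. Many imprinted genes control growth, and tumor cell lines often lose or gain the expression of imprinted genes. Counts per gene do not separate the maternal from the paternal allele, so the values below are total levels and not a measure of imprinting.

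Total counts lay between 11098400, in WT replicate 3, and 30899045, in WT replicate 2, and 3 counts, the smallest signal read as detection here, corresponded to between 0.0971 and 0.270 CPM, the count relative to the size of the library; these floors cover counting error only. The targeted gene, CDK12, was still counted in KO, at 98.05 ± 4.64 CPM against 115 ± 11.1 CPM in WT (SD, n = 3 each), -0.23 in log2 fold change; a count of the whole gene does not test a small change at exon 1. Of 7 markers of ovarian epithelium, KRT8, KRT18 and EPCAM were detected, and PAX8, CDH1, MUC16 and WFDC2 had at most 6 counts in any library; KRT18 and KRT8 were higher in KO and EPCAM lower. The 5 fibroblast markers were all lower in KO: their summed level was 5147 to 5278 CPM in WT, nearly all of it COL1A2 and COL1A1, and 2679 to 2813 CPM in KO, where DCN and LUM had 0 counts. The 4 leukocyte markers summed to at most 0.401 CPM in any library. Among 3 endothelial markers, PECAM1 and CDH5 had at most 2 counts in any library and VWF was higher in KO, at 0.704 ± 0.130 against 0.192 ± 0.105 CPM. The part of these shifts in the results below was not tested.

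The promoters of imprinted genes are often rich in CpG, the dinucleotide that carries the methyl mark, and the letters TGCCGC are the core of the site that ZFP57 binds when methylated. Upstream sequence from RefSeq (GRCh38.p14) was held for 14 annotated starts of 7 of the genes; IGF2, CDKN1C and KCNQ1OT1 had no entry. The 250 bases before the start are shown, 5′ to 3′ on the strand of the gene, for the SNRPN and PLAGL1 starts that lie in the CpG island carrying the imprint and for the single starts of NDN, NAP1L5 and DIRAS3, so that genes with small or no called differences stand beside genes that rose. Capitals mark TGCCGC or its reverse complement GCGGCA. The SNRPN window is chr15:24954737-24954986 on the plus strand and the NDN window chr15:23687306-23687555 on the minus strand. The PLAGL1 window is chr6:144008260-144008509, that of NAP1L5 chr4:88697830-88698079 and that of DIRAS3 chr1:68050628-68050877, all on the minus strand.
SNRPN: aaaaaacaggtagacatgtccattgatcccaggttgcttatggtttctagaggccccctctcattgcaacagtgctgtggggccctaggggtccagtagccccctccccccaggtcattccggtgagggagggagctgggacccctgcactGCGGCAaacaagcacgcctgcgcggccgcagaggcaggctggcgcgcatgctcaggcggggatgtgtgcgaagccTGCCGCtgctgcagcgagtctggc
NDN: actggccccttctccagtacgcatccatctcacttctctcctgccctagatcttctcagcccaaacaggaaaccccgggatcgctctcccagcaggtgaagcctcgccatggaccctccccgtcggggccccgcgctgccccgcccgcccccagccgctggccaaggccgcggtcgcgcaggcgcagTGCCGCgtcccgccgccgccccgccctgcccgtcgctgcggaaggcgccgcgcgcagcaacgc
PLAGL1: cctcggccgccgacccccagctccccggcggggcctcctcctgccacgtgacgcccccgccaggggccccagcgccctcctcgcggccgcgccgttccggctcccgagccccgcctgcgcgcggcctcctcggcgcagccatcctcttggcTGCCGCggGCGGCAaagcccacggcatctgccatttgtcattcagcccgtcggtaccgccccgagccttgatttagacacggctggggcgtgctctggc
NAP1L5: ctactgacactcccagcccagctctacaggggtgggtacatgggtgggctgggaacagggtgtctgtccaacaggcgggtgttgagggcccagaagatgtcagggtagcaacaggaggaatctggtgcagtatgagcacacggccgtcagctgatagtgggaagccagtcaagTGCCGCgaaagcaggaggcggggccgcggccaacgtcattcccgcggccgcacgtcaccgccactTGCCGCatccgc
DIRAS3: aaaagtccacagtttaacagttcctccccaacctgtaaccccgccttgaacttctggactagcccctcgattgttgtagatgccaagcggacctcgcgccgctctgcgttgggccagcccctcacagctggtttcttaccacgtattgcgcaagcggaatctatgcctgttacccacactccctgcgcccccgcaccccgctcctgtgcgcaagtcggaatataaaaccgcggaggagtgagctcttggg
The motif occurred on either strand 2 times in the windows of SNRPN, PLAGL1 and NAP1L5, 1 time in that of NDN and not in that of DIRAS3. Over all 35116 promoters of the RefSeq table, 12.7% had at least 1 match in the same 250 bases and 1.69% had 2 or more. CpG dinucleotides numbered 12 for SNRPN, 30 for NDN, 32 for PLAGL1, 16 for NAP1L5 and 17 for DIRAS3, against a median of 11 over all promoters. Over all 14 windows of the members the number of CpG ran from 1 to 32 with a median of 9, and 6 windows lay above 11 and 8 below it. The windows shown all lay above 11. Of those not shown, a further PLAGL1 start held 21 CpG, more than the windows of SNRPN, NAP1L5 and DIRAS3, and the rest lay below 11. Of the 14 windows, 5 had a match, in 4 of the 7 genes. The windows of MAGEL2 and MKRN3, not shown, had no match and held 8 and 10 CpG. A match is a string of letters, and methylation at these sites was not measured here.

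NAP1L5, PLAGL1, CDKN1C and DIRAS3 rose in KO, MAGEL2 fell, NDN and KCNQ1OT1 were lower by small margins, and SNRPN and MKRN3 did not pass the test. A gene is said to have risen or fallen when the quasi-likelihood test of edgeR, with p-values adjusted by Benjamini and Hochberg's method over all tested genes, gave an adjusted p under 0.05; it is called up-regulated or down-regulated if its log2 fold change (KO over WT) was also above 1 or below -1. By the stricter rule NAP1L5, CDKN1C and DIRAS3 were up-regulated, 3 of the 9 tested genes, where 8.30% of all tested genes were, and MAGEL2 alone was down-regulated, where 7.73% were. By the adjusted p alone 4 were higher and 3 lower, against 31.9% and 32.0% of all tested genes; for either direction it was 7 of 9 against 63.9%, so that most genes of these cells had a change of this kind. The KO libraries lay above all WT libraries for 4 of the 9 genes and below them for 1, as they did for 32.8% and 33.5% of all tested genes, so that 5 of 9 did not overlap, against 66.4%. The median log2 fold change of the 9 was 0.09, and that of all tested genes 0.0004; the median size of the change without its sign was 0.83 and 0.32. DIRAS3 reached the count filter only through its KO libraries and so had to differ. In bulk RNA a lower level in every cell and fewer cells that express a gene cannot be told apart.

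Scaled to the length of their exons, the genes spanned a wide range. NDN had the highest level in WT, at 23.9 ± 0.542 CPM per kilobase (SD, n = 3), followed by SNRPN at 5.30 ± 0.194 and PLAGL1 at 5.06 ± 0.182 CPM per kilobase, whose libraries overlapped. NAP1L5 (1.74 ± 0.280) and MKRN3 (1.54 ± 0.0509) came next and overlapped each other, as did KCNQ1OT1 (1.06 ± 0.198) and CDKN1C (1.05 ± 0.198). MAGEL2, DIRAS3 and IGF2 were the lowest, in that order. In KO, PLAGL1 stood above SNRPN with no overlap, at 9.04 ± 0.126 against 4.70 ± 0.594 CPM per kilobase, and SNRPN then overlapped NAP1L5. CDKN1C stood above MKRN3, and DIRAS3 above MAGEL2, again without overlap. Exon lengths are those of all annotated exons of a gene, and for KCNQ1OT1, an unspliced RNA, the 92.6 kilobases used may be longer than the RNA made in these cells.

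The 4 genes of chromosome 15 lie in the region whose paternal copy is lost in Prader-Willi syndrome, and all are expressed from the paternal allele. NDN (ENSG00000182636, GRCh38 chromosome 15, 23685400 to 23687305, minus strand) encodes necdin, a growth-suppressing protein of the MAGE family. It was measured at 46.6, 45.1 and 44.7 CPM in WT and at 42.3, 41.1 and 39.4 CPM in KO. All KO libraries lay below all WT libraries, by a narrow gap. On the log2 scale the change was -0.15 (standard error 0.0573, edgeR adjusted p = 0.0218), and the exact permutation test of the 2 groups gave p = 0.1, two-sided, the smallest that 3 libraries against 3 allow. The adjusted p rose above 0.05 in 4 of the 12 alternative settings, to at most 0.0937 without KO replicate 3.

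SNRPN (ENSG00000128739, 24823637 to 24978723, plus strand) encodes SmN, a protein of the spliceosomal Sm ring, and its transcript also carries the SNURF reading frame. Its levels were 17.3, 18.3 and 18.6 CPM in WT and 13.7, 17.5 and 16.9 CPM in KO. The lowest value is that of KO replicate 1, and the groups overlap. Its log2 fold change, -0.17, did not pass the test (edgeR adjusted p = 0.0851), and 2 standard errors on each side run from -0.34 to 0.0025. The adjusted p was 0.0280 without KO replicate 2 (edgeR), where the log2 fold change was -0.24, and without KO replicate 1 it was -0.06. SNRPN shares 23.9% of its exon bases with SNURF on the same strand, and reads in shared exons may have been left uncounted; SNURF had 6 to 18 counts in each library.

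MKRN3 (ENSG00000179455, 23565674 to 23630075, plus strand) encodes a ubiquitin ligase known as a brake on puberty. Its levels were 11.2, 11.1 and 10.5 CPM in WT and 10.1, 13.1 and 11.9 CPM in KO, with KO values on both sides of the WT values. KO and WT differed by 0.09 on the log2 scale (edgeR adjusted p = 0.447), with 2 standard errors on each side from -0.11 to 0.28, and its sign turned without KO replicate 2.

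MAGEL2 (ENSG00000254585, 23643549 to 23647867, minus strand) encodes a MAGE protein that works with the ubiquitin ligase TRIM27 in endosomal recycling. Few reads were assigned to it: 30, 36 and 5 counts in WT and 11, 12 and 10 counts in KO. These counts correspond to 1.10, 1.20 and 0.450 CPM in WT and 0.448, 0.446 and 0.562 CPM in KO. WT replicate 3, the library with the fewest reads, stood with the KO libraries, so that the groups overlap. The fitted log2 fold change was -1.10 (standard error 0.314, edgeR adjusted p = 0.00297). It fell short of the fold threshold with voom/limma, at -0.99, and without WT replicate 2, at -0.91. MKRN3 and NDN, its nearest tested neighbours at 13.5 and 37.5 kilobases, had log2 fold changes of 0.09 and -0.15. SNHG14, the long RNA that begins at the end of SNRPN and hosts its small nucleolar RNAs, was lower in KO (log2 fold change -0.26, adjusted p = 4.74e-05, edgeR), as was UBE3A, the ubiquitin ligase gene of Angelman syndrome (log2 fold change -0.19, adjusted p = 0.00180, edgeR). ATP10A, beyond UBE3A, was higher by 0.47 on the log2 scale (edgeR adjusted p = 4.16e-08).

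The short arm of chromosome 11 holds neighbouring imprinted domains, one with the growth factor gene IGF2 and the RNA gene H19, the other with CDKN1C and the RNA gene KCNQ1OT1. In the embryo IGF2 is expressed from the paternal and H19 from the maternal allele, under a control region between them. IGF2 (ENSG00000167244, chromosome 11, 2129112 to 2158391, minus strand) had 1, 1 and 0 counts in WT and 14, 6 and 10 counts in KO. The WT libraries were all below the floor of 3 counts, and every KO library lay above them, at 0.570, 0.223 and 0.562 CPM. Over the pooled counts, 30 in KO and 2 in WT, the scaled ratio was 14.8, with a 95% exact interval of 3.76 to 128 that covers counting error only. IGF2 failed the count filter through KO replicate 2; with no filter its adjusted p was 4.94e-06 (edgeR), and the exact permutation test gave p = 0.1, two-sided. Its neighbour H19 (1995166 to 2004552), which is no member, was measured at 3.76, 3.94 and 4.86 CPM in WT and 33.9, 32.4 and 28.7 CPM in KO. It rose by 2.98 on the log2 scale (standard error 0.0973, edgeR adjusted p = 4.82e-23). In KO, IGF2 had 6 to 14 counts in a library and H19 had 511 to 871.

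On the other side of IGF2, C11orf21 and TSPAN32, a tetraspanin gene, were up-regulated as well. These genes overlap each other on opposite strands, and reads may be shared between them. Neither could have passed the count filter without its KO libraries, so both were selected for being higher. C11orf21 also reached it in 1 WT library. C11orf21 had 17, 10 and 3 counts in WT and 471, 600 and 345 counts in KO, and TSPAN32 had 1, 1 and 0 against 279, 406 and 233 counts. Farther along, CD81 was higher by 0.35 on the log2 scale (edgeR adjusted p = 6.69e-08), and TSSC4 differed by -0.08 (edgeR adjusted p = 0.325).

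CDKN1C (ENSG00000129757, 2883213 to 2885775, minus strand) encodes p57, an inhibitor of cyclin-dependent kinases expressed from the maternal allele. Its levels were 3.14, 2.17 and 2.52 CPM in WT and 6.23, 4.87 and 4.83 CPM in KO. Every KO library exceeded every WT library, and KO replicate 1 was the highest. CDKN1C rose by 1.03 on the log2 scale (standard error 0.157, edgeR adjusted p = 9.72e-07), just past the fold threshold: it was 0.85 without WT replicate 2 and 0.89 without KO replicate 1. The 3 genes beyond it did not pass the test: the log2 fold changes were 0.65 for SLC22A18AS, which had 5 to 20 counts in a library, 0.14 for SLC22A18 and -0.02 for PHLDA2 (edgeR adjusted p = 0.109, 0.117 and 0.919).

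KCNQ1OT1 (ENSG00000269821, 2597308 to 2700003, minus strand) is a long RNA made antisense to KCNQ1 from the paternal allele, where it is known to silence CDKN1C and its neighbours. It was measured at 119, 89.5 and 85.6 CPM in WT and at 90.6, 84.9 and 85.7 CPM in KO. WT replicate 1 alone stood above all other libraries, and the other 5 lay close together. KO and WT differed by -0.18 on the log2 scale (standard error 0.0736, edgeR adjusted p = 0.0294), and by -0.02 without WT replicate 1 (edgeR adjusted p = 0.811). In 7 of the 12 alternative settings the adjusted p was above 0.05. KCNQ1 itself had at most 1 count in any library.

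PLAGL1 (ENSG00000118495, chromosome 6, 143940300 to 144064599, minus strand) encodes a zinc finger transcription factor, also named ZAC1, that is expressed from the paternal allele in the embryo and restrains cell growth. Its levels were 33.1, 33.04 and 31.1 CPM in WT and 57.8, 57.2 and 58.8 CPM in KO. The libraries of each group lay close together and the groups were far apart. PLAGL1 rose by 1.78-fold (log2 fold change 0.83, standard error 0.0571, adjusted p = 2.79e-14, edgeR), which is under the fold threshold. In all 12 alternative settings the log2 fold change lay between 0.80 and 0.86. The gene has several start sites, both imprinted and not, which counts per gene do not separate. Of its nearest tested neighbours, LTV1 and SF3B5 had log2 fold changes of -0.14 and 0.03 (adjusted p = 0.0690 and 0.667, edgeR), PHACTR2 was lower at -0.75 and UTRN higher at 0.54 (adjusted p = 1.65e-10 and 1.69e-06, edgeR).

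NAP1L5 (ENSG00000177432, chromosome 4, 88695913 to 88697829, minus strand) is a gene without introns that encodes a nucleosome assembly protein and lies inside HERC3 on the opposite strand. Its levels were 2.74, 3.47 and 3.78 CPM in WT and 8.18, 8.02 and 8.65 CPM in KO, with no overlap. It rose by 2.55-fold (log2 fold change 1.35, standard error 0.128, adjusted p = 6.59e-11, edgeR), and its log2 fold change stayed between 1.21 and 1.43 in all 12 alternative settings. HERC3, the gene around it, was lower in KO at 12.4 ± 1.39 CPM against 16.2 ± 0.522 CPM (SD, n = 3 each), or -0.36 in log2 fold change (edgeR adjusted p = 4.84e-04). NAP1L5 and HERC3 share no exon bases. None of the 7 nearest or overlapping tested genes passed both thresholds; by the adjusted p of edgeR alone 2 were higher and 3 lower, with log2 fold changes from -0.51 to 0.24.

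DIRAS3 (ENSG00000162595, chromosome 1, 68045886 to 68051717, minus strand) encodes a small GTPase, also named ARHI, that inhibits growth, is expressed from the paternal allele and is often silenced in ovarian and breast carcinoma. It had 1, 2 and 1 counts in WT, all below the floor of 3 counts, and 12, 19 and 14 counts in KO. The KO levels of 0.488, 0.706 and 0.787 CPM were all above those of WT. The ratio of the pooled and scaled counts, 45 in KO and 4 in WT, was 11.1, with a 95% exact interval of 4.05 to 42.6 for counting error only; edgeR gave an adjusted p of 1.54e-06. Genes around it were up-regulated as well. GNG12-AS1, an RNA gene that runs antisense across DIRAS3 without shared exon bases, had 3, 0 and 1 counts in WT and 15, 17 and 18 in KO, a pooled ratio of 12.4 (95% exact interval 4.53 to 47.1). Like DIRAS3, it reached the count filter only through its KO libraries and so had to be higher. The flanking genes were well expressed in both groups and rose too: GNG12, a G protein subunit gene, had 3609, 4009 and 1399 counts in WT and 8045, 7858 and 6092 in KO (log2 fold change 1.29, adjusted p = 3.56e-20, edgeR), and WLS, needed for the secretion of Wnt proteins, had 300, 329 and 124 against 931, 990 and 632 (log2 fold change 1.74, adjusted p = 2.88e-20, edgeR). The next tested genes were DEPDC1 on one side, with -0.26 in log2 fold change, and GADD45A on the other, with 0.34. Because the strand setting of the count step is not given in the sources used here, reads of DIRAS3 and WLS cannot be fully separated from those of GNG12-AS1.

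Counting each gene once and leaving out the members, 39 tested genes were neighbours of a member or overlapped one. Of these, 7 were up-regulated and none was down-regulated past both thresholds by edgeR, and at the adjusted p alone 16 were higher and 12 lower. Over all tested genes these shares were 8.30% and 7.73% by both thresholds, and 31.9% and 32.0% by the adjusted p alone, near the 12 of 39 that were lower. The 7 were H19, C11orf21 and TSPAN32 near IGF2, GNG12, GNG12-AS1 and WLS near DIRAS3, and ENSG00000280234, a gene beyond SNRPN with at most 5 counts in any WT library and 14 to 23 in KO. Of the 7, C11orf21, TSPAN32, GNG12-AS1 and ENSG00000280234 could not have passed the count filter without their KO libraries and so were selected for being higher. This leaves H19, GNG12 and WLS as those well counted in both groups. Of the members that rose, PLAGL1, NAP1L5 and CDKN1C had no up-regulated neighbour.

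**Figure D1:**
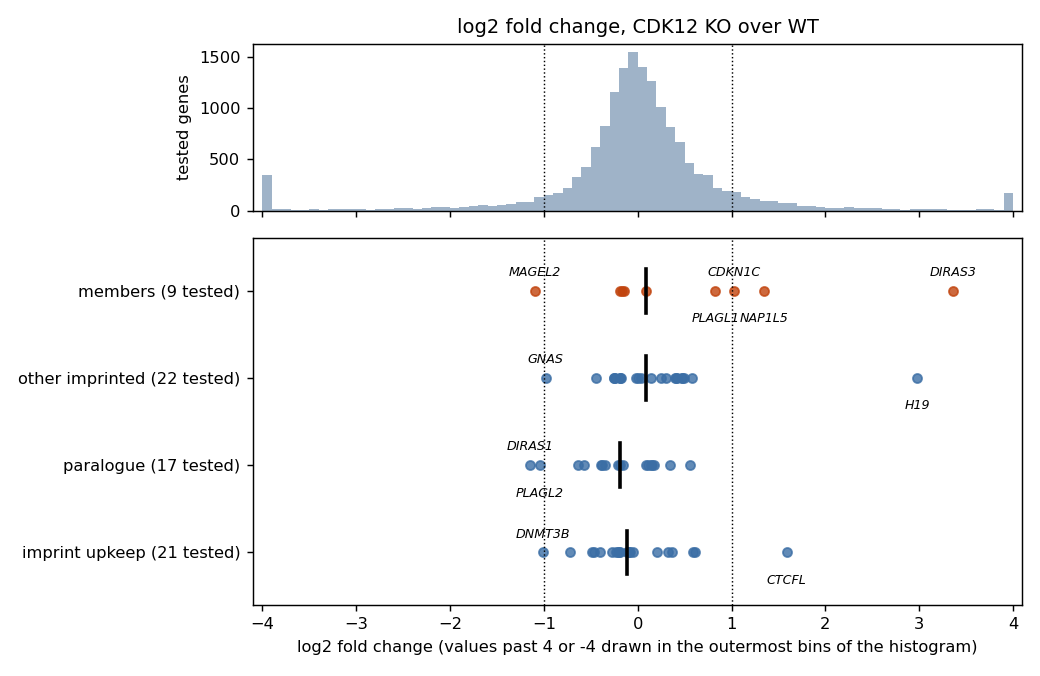
Log2 fold change (KO over WT) of all 16198 tested genes as a histogram, and below it of the tested members and of 3 hand-written lists; dots are genes, thick bars are medians and dotted lines mark the fold threshold and values past 4 on either side are drawn in the outermost bins. The members and the other imprinted genes have medians near 0; MAGEL2 lies below the lower line and GNAS just inside it, and DIRAS3 and H19 lie farthest to the right.

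A list of 44 further genes reported as imprinted in human or mouse, outside chromosome 7, was examined for comparison; 43 have a row and 22 were tested. The only one past both thresholds was H19, up-regulated, and none was down-regulated. At the adjusted p alone 10 were higher and 6 lower, where 31.9% and 32.0% of all tested genes were, and the median log2 fold change was 0.09, against 0.0004 for all tested genes. GNAS, the gene of the stimulatory G protein subunit, fell from 788 ± 25.9 to 400.1 ± 1.66 CPM (SD, n = 3 each), and its log2 fold change of -0.98 lay just inside the threshold (adjusted p = 1.47e-18, edgeR). BLCAP, ZDBF2, IGF2R and RB1 were higher, with log2 fold changes of 0.49, 0.42, 0.48 and 0.39. Of the 21 genes not tested, 14 had 0 counts in every library, among them PEG3, DLK1 and NNAT, and the others had at most 11 counts in any library. MEG3, the maternally expressed RNA of chromosome 14, had at most 2.

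Of 20 paralogues of the members that are not in the lists of imprinted genes, 17 were tested: none was up-regulated, PLAGL2 and DIRAS1 were down-regulated, and at the adjusted p alone 5 were higher and 10 lower, with a median log2 fold change of -0.19. Over all tested genes, up-regulation had a share of 8.30% and down-regulation one of 7.73%, with 31.9% higher and 32.0% lower. PLAGL2 fell (log2 fold change -1.04, adjusted p = 8.92e-16, edgeR) where PLAGL1 rose. DIRAS1 fell from 53.7 ± 2.51 to 24.3 ± 0.148 CPM (SD, n = 3 each; log2 fold change -1.15, adjusted p = 2.41e-17, edgeR) where DIRAS3 rose. Among the other kinase inhibitors of the CDKN1C family, CDKN1A was higher (0.34) and CDKN1B lower (-0.64) by log2 fold change. CDKN1B had few counts, 35, 27 and 12 in WT and 14, 19 and 15 in KO. Its adjusted p was 0.0425, and 0.0623 with no filter (edgeR). NAP1L1 was lower (-0.35), NAP1L3 and NAP1L4 higher (0.56 and 0.17), and SNRPB, the near relative of SNRPN, was lower (-0.16). MAGED2, MAGEE1, MAGEF1, MAGEH1 and NSMCE3 of the MAGE family were lower, with log2 fold changes from -0.58 to -0.19, and MAGED1 was higher at 0.16.

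A list of 24 genes tied to imprinting mixed genes that set, keep or remove DNA methylation with other chromatin regulators, and 21 were tested. CTCFL was up-regulated and DNMT3B down-regulated past both thresholds. At the adjusted p alone 6 were higher and 10 lower, with a median log2 fold change of -0.11. The 1 call in each direction stands beside shares of 8.30% and 7.73% over all tested genes, of which 31.9% were higher and 32.0% lower. DNMT3B, a de novo DNA methyltransferase, fell from 38.1 ± 1.92 to 18.8 ± 0.852 CPM (SD, n = 3 each; log2 fold change -1.01, adjusted p = 1.13e-14, edgeR). CTCFL, a germline relative of the insulator protein CTCF, went from a low level, 0.459 ± 0.114 to 1.44 ± 0.272 CPM (log2 fold change 1.59, adjusted p = 1.03e-05, edgeR). It was at the count filter in 2 WT and 3 KO libraries, and could not have passed without its KO libraries. DNMT1 and its guide UHRF1 were lower (-0.19 and -0.40), ZNF445 was higher (0.59), and TRIM28 differed by -0.09 (edgeR adjusted p = 0.103). ZFP57 and DNMT3L had 0 counts in every library and DPPA3 at most 1. The polycomb genes EZH2, EED and SUZ12 were lower, with log2 fold changes of -0.72, -0.47 and -0.20.

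Of 20 genes whose products act with those of the members, all tested, 1 was up-regulated and 4 down-regulated past both thresholds, and 3 were higher and 15 lower at the adjusted p alone. The shares over all tested genes were 8.30% and 7.73%, and 31.9% and 32.0%; the 20 had a median of -0.31 in log2 fold change. For IGF2, the receptor gene IGF1R rose from 37.5 ± 1.41 to 89.04 ± 3.45 CPM (SD, n = 3 each; log2 fold change 1.25, adjusted p = 2.45e-19, edgeR), and IGF2R, whose product clears IGF2, was higher. The genes of the proteins that bind IGF2 mRNA all fell: IGF2BP1 from 491 ± 40.3 to 4.27 ± 0.197 CPM, IGF2BP2 from 130.1 ± 4.70 to 64.3 ± 2.06 CPM, and IGF2BP3 from 50.9 ± 3.16 CPM to at most 1 count in any KO library, so that IGF2BP3 was tested only through its WT libraries. All 6 genes of the Sm ring that SNRPN joins were lower, with log2 fold changes from -0.64 to -0.15. Of the cell cycle proteins that CDKN1C restrains, the genes CDK2, CDK4, CCNE1 and CCND1 were lower, by log2 fold changes of -0.68, -0.22, -0.43 and -1.04. TRIM27, the ligase partner of MAGEL2, was higher at 0.31, and VPS35 lower at -0.12.

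**Figure D2:**
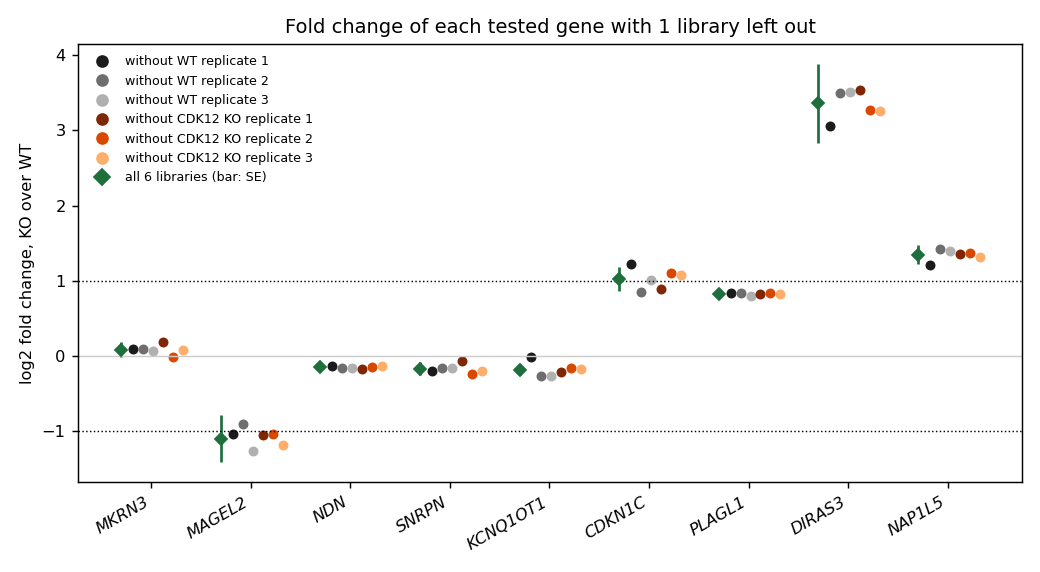
Log2 fold change (KO over WT) of the 9 tested members with all libraries (green diamonds, bars are standard errors) and with each of the 6 libraries left out in turn (dots); dotted lines mark the fold threshold. KCNQ1OT1 returns to near 0 without WT replicate 1, and CDKN1C and MAGEL2 cross the threshold with some libraries left out. PLAGL1 hardly moves, and NAP1L5 stays past the threshold, between 1.21 and 1.43.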

How the data were processed

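RNA of A2780 WT and A2780 CDK12 KO cells was sequenced with a stranded kit and single-ended reads; libraries were grouped by their genotype label and numbered within a group in order of deposit. The authors deposited raw counts per gene, made with FastQC, STAR (GRCh38) and HTSeq-Count; versions, annotation release and the strand setting are not given in the sources used here. The 60483 identifiers were matched without version to GENCODE release 44, which holds 56321 of them (93.1%). The 10 members and all lists were chosen with earlier results of these data known, and the lists were written by hand.

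The comparison of KO and WT used edgeR 4.0.16 under R 4.3.3, with filterByExpr (minimum count 10, minimum total 15), TMM, and the quasi-likelihood test, two-sided, with Benjamini-Hochberg adjustment over 16198 genes. The standard error is the log2 fold change divided by the square root of the test's F. Up- and down-regulation required a log2 fold change past 1 or -1 beside an adjusted p below 0.05, as in the study's methods. CPM used TMM-scaled totals; for genes with at most 3 counts in each WT library the ratio of pooled counts is given with an exact conditional binomial interval. Single genes were also compared by an exact permutation test of log2 CPM with 0.5 added to each count. Between libraries of the same group, chi-square per degree of freedom was 1.69 to 6.98, above counting error, so none was a mere recount of another. This does not show whether the libraries came from separate cultures. Neighbours were the 3 nearest tested genes on each side plus overlapping ones.

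The genes named are the members, their overlapping genes and neighbours, list genes past both thresholds, paralogues, and the 3 tested genes with the nearest profile; some further list genes were named after their values were seen. The alternatives were voom/limma (limma 3.58.1), DESeq2 1.42.0, other scalings and filters, the adjusted p alone and each library left out. Scripts were tested on simulated data. Summaries and intervals were computed under Python 3.11.15 (scipy 1.17.1, pandas 2.3.3, numpy 2.4.6).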

Additional observations from a re-analysis of the deposited data

How the results depend on the processing

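NAP1L5, PLAGL1, DIRAS3 and CDKN1C kept their direction and an adjusted p under 0.05 in each alternative in which they were tested. For DIRAS3 the filtered fits are no support, because it reached the count filter only through its KO libraries and so had to be higher. The fit with no filter gave DIRAS3 an adjusted p of 3.27e-08 (edgeR). With each library left out, 2 to 4 members were up-regulated and 0 to 1 down-regulated, and over all tested genes 1377 to 1502 were up-regulated and 1269 to 1369 down-regulated; the count of 4 includes IGF2, which passed the filter in some of these fits. No member was down-regulated (0) with voom/limma, where MAGEL2 had a log2 fold change of -0.99, or when every library had to have at least 10 counts, where MAGEL2 was not tested; that filter also left 568 up-regulated and 684 down-regulated genes in all. By the adjusted p alone 3 members were lower, and 5165 genes were higher and 5188 lower. The log2 fold change of MKRN3 lay between -0.0142 and 0.18 with a library left out. Upper-quartile scaling took NDN and KCNQ1OT1 past an adjusted p of 0.05 (0.0626 and 0.0655, edgeR) and moved the median of all genes by less than 0.1. No paired analysis was possible because the labels share no replicate numbers between the groups. The counts of MAGEL2, DIRAS3 and IGF2 are few, and depth limits their fold changes most.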

Other observations

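For each member past both thresholds, the tested genes outside the lists whose level over the 6 libraries, centred on its mean, came nearest were named by Euclidean distance on the log2 CPM scale. For NAP1L5 these were FAM174A, ENSG00000261324 and DUBR, at distances of 0.144 to 0.160, on chromosomes 5, 12 and 3. For CDKN1C they were ENSG00000279456, PSORS1C1 and MST1L, at 0.158 to 0.231. DIRAS3 came nearest to GLRA3, ENSG00000260532 and UBA7, at 0.349 to 0.599, and MAGEL2 to RPS11P5, HMGA1P2 and GAB2, at 0.502 to 0.544. None of these genes lies on the chromosome of its member. With 6 libraries in 2 groups the distance mostly reflects a like fold change.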
